A study of Mus musculus with 6 samples.

Results

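The genes described here are 39 genes of mitosis and the spindle, a list of named genes that run chromosome condensation, spindle assembly, the segregation checkpoint and cell division. Of these, 37 were measured, among 17097 genes that had a probe set with 1 gene symbol. Ccnb1 and Nuf2 had no probe set under their symbol in the platform annotation used here and were not analysed. Where a gene had several probe sets, the one brightest on average across the 6 arrays stood for it, and the rest served as a check.

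RNA came from CD11c+ dendritic cells that had been sorted by flow cytometry from the spleens of C57Bl/6 mice, and each sample was hybridised to 1 Affymetrix 3' expression array. The Map3k7 knockout group (genotype label Map3k7CreER, 3 samples) carries an inducible Cre recombinase that removes Map3k7, the gene of the kinase TAK1. The other group is wild type (genotype label WT, 3 samples), and tamoxifen was given to the mice of each group over 3 days. The promoter that drives Cre, the ages and whether each sample is 1 mouse are not given in the sources used here, so p-values cover no more than the spread among these samples. Cre, deletion in other cells and deletion in dendritic cells cannot be told apart.

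During mitosis, cyclin-dependent kinase Cdk1 with cyclins A and B drives entry, condensins compact the chromosomes, and motors and microtubule-organising proteins build the spindle. Kinetochores tie each chromosome to the spindle, the spindle checkpoint holds back the anaphase-promoting complex until all are attached, and the central spindle then directs cytokinesis. Most of these transcripts are made only late in the cell cycle, so in a tissue their level is known to follow the number of dividing cells. Conventional dendritic cells of the spleen are renewed by precursors that enter from the blood and by some division in place.

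Values are log2 signals after RMA, and the median over all probe sets of an array lay between 3.77 and 3.81, so a gene near 4 is hardly brighter than a typical probe set. With 3 arrays a group, precision is limited by their number. As a check of the labels, Map3k7 itself read 4.05 ± 0.41 in knockout cells, against 6.65 ± 0.06 in wild-type cells (SD, n = 3 each), a difference of -2.60 (SE 0.19, limma adjusted p = 0.00128). Its other probe sets stood at -3.25, -2.34, -0.65 and -0.19 (limma adjusted p = 0.000165, 0.0181, 0.239 and 0.650), the last with overlapping arrays. Where its probes lie relative to the deleted stretch was not analysed here. The sorted gene Itgax, which encodes CD11c, read between 10.8 and 11.0 in knockout arrays and between 11.0 and 11.3 in wild-type arrays. Of the 14 dendritic cell markers listed, 13 were measured and 0 passed the test (limma, with 5 lower and 1 higher at an unadjusted p under 0.05). Over all genes, 8.0% were lower and 8.41% higher at that unadjusted p.

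Mitosis and spindle transcripts stood lower in knockout cells by a modest amount, and 1 of them, Haus8, passed the test. The difference (knockout minus wild type) was negative for all 37 measured genes on the probe set standing for each, against 53.9% of all genes. Its median over the 37 was -0.59 on the log2 scale (1.50-fold lower), against -0.02 over all genes. The differences ran from -1.69 for Haus8 to -0.08 for Kif23. With limma and Benjamini-Hochberg adjustment over all probe sets, 1 of the 37 passed at 0.05 as lower, Haus8, against 0.591% of all genes, and 0 passed as higher, against 1.08% of all genes. Before adjustment, 26 were lower at p under 0.05, against 8.0% of all genes, and 0 were higher, against 8.41% of all genes. The knockout arrays were all lower than the wild-type arrays for 17 of the 37, against 10.6% of all genes. Whether fewer cells carried these transcripts or each cell carried less cannot be told apart in bulk RNA.

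**Figure D1:**
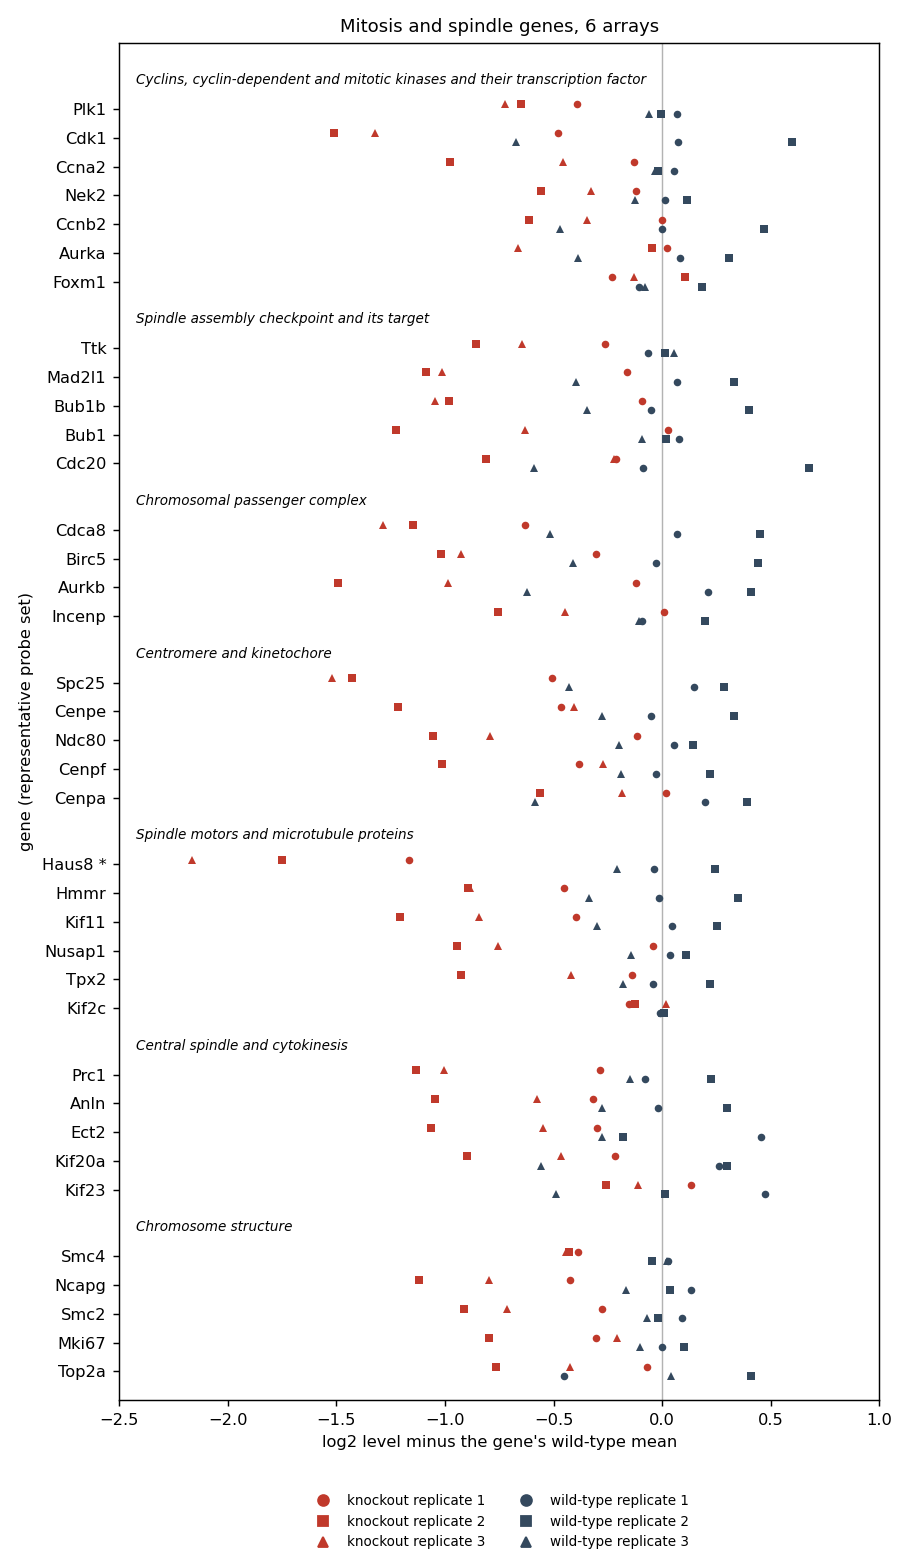
Level of each of the 37 measured genes in each array, as the log2 level minus that gene's wild-type mean, by role; red marks are knockout arrays and dark marks wild-type arrays, the shape gives the replicate number and an asterisk marks an adjusted p under 0.05. Haus8 stands farthest to the left, and knockout replicate 1 lies to the right of the other knockout arrays for 32 of the 37 genes.

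**Figure D2:**
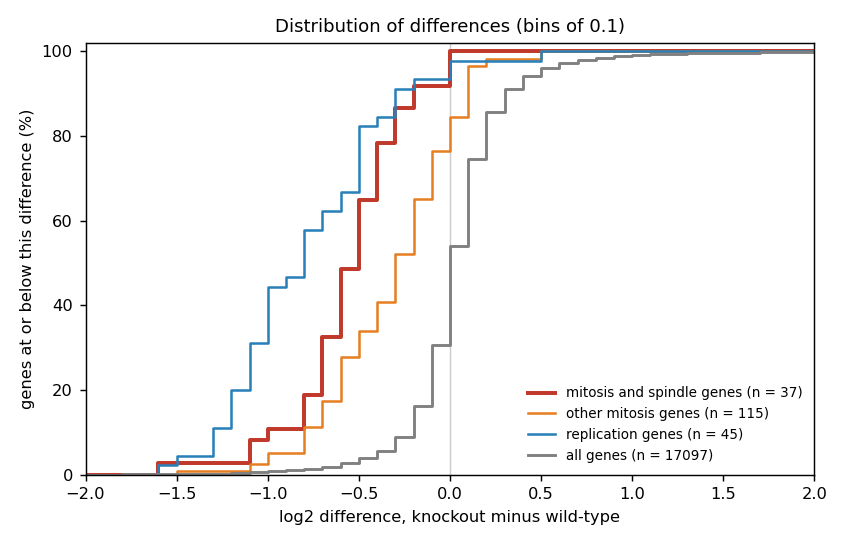
Share of genes at or below each log2 difference (knockout minus wild-type, bins of 0.1) for the 37 mitosis and spindle genes, 115 other mitosis genes, 45 replication genes and all 17097 genes. The curve of the mitosis and spindle genes reaches 100% at 0, where that of all genes has reached 53.9%.

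The promoters of these genes are shown because such genes are known to share 2 short elements, the cell cycle genes homology region (CHR), which the DREAM and MuvB complexes bind, and the CCAAT box, which NF-Y binds. RefSeq promoters of build GRCm38.p6, each from 250 bases before to 50 bases after the annotated start, were held for 32 of the 39 genes (34 promoters). A CHR match was TTTGAA or TTCGAA on either strand (TTCAAA is the first read on the other strand, and TTCGAA is its own reverse complement), and a CCAAT match was CCAAT or ATTGG. Matches to the 2 elements can share an end base. In the sequences below, given 5′ to 3′ on the strand of the gene, capitals mark these matches. Plk1 and Ncapg have the smallest p among the genes with a CHR match, Mki67 is the brightest gene with one, and Haus8 is the gene that passed the test.
Plk1: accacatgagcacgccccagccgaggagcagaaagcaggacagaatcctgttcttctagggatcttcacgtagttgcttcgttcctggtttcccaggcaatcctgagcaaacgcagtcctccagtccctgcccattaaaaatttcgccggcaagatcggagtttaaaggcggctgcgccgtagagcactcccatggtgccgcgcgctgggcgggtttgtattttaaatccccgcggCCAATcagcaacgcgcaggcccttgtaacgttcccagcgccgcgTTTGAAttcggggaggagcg
Ncapg: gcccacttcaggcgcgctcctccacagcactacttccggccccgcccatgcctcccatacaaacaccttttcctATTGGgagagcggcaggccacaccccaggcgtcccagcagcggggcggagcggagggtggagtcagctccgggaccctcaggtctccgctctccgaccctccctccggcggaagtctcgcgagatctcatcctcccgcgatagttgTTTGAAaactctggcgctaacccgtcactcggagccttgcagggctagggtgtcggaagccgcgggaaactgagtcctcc
Mki67: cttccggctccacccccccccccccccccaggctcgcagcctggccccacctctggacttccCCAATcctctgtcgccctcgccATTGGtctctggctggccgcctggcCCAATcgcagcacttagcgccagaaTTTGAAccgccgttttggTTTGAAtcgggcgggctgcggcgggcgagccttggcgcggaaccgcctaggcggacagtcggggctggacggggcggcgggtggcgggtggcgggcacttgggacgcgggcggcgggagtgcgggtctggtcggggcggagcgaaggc
Haus8: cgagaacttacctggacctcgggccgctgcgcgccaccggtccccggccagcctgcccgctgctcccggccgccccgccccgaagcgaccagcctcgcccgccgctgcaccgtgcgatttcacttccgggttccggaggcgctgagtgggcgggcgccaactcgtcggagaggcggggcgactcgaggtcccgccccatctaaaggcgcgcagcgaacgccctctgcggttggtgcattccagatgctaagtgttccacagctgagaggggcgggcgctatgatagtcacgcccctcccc

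The Plk1 sequence is chr7:122159185-122159484 (+ strand), with CCAAT at position -14 and TTTGAA at 30, counting the annotated start used for the promoter as 0. That of Ncapg is chr5:45669675-45669974 (+ strand), with ATTGG at -176 and TTTGAA at -30. The Mki67 sequence is chr7:135716330-135716629 (- strand) and has TTTGAA at -116 and -98, downstream of 3 CCAAT matches. The Haus8 sequence, chr8:71272541-71272840 (- strand), holds neither set of letters, which says nothing of what binds there. The annotated genes Ncapg, Mki67 and Haus8 begin upstream of the starts used here, at 45669891, 135716450 and 71272627. Positions counted from those bases would differ. Of the 34 promoters, 26 (76.5%) held a CHR match and 26 a CCAAT match, against 15.0% and 37.6% of 17065 promoters of genes named on the array. Within 50 bases of the start, 24 of the 34 (70.6%) held a CHR match, against 3.90% of those 17065. Other mitosis genes had a CHR match in 46.0% of 113 promoters, and replication genes in 16.3% of 43. Birc5, Mad2l1, Nusap1 and Nuf2 shared with Haus8 the absence of both.

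**Figure D3:**
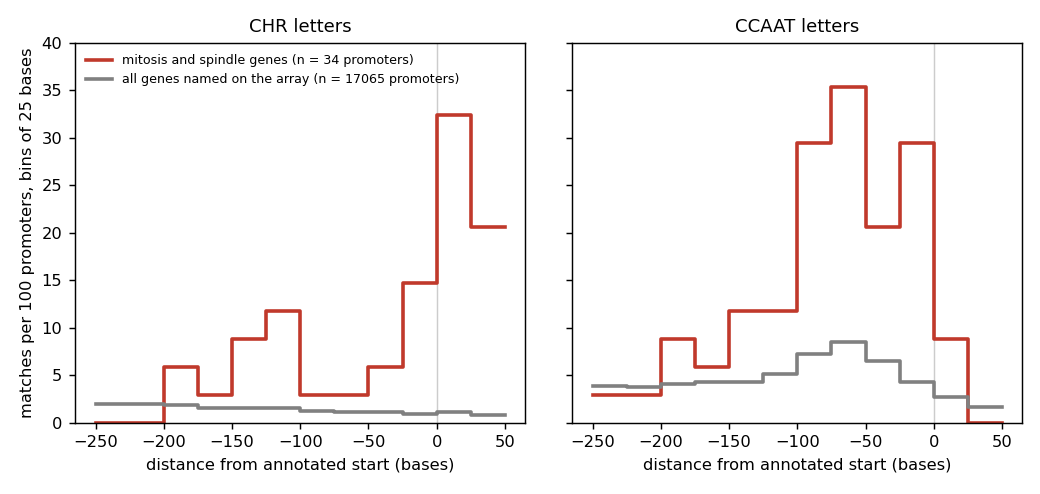
Matches to the CHR letters (left) and CCAAT letters (right) per 100 promoters, in bins of 25 bases by distance from the annotated start, for 34 promoters of mitosis and spindle genes and 17065 promoters of genes named on the array. CHR matches of the mitosis genes gather just after the start, with 11 in the first bin of 25 bases, and CCAAT matches lie mostly upstream of it.

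Haus8, a subunit of the augmin complex that brings gamma-tubulin to existing spindle microtubules, and in human cells the subunit that binds the microtubule, fell 3.24-fold. Its levels were 8.20, 7.62 and 7.20 in knockout arrays, against 9.33, 9.61 and 9.16 in wild-type arrays. The groups were nearly 1 log2 unit apart at their closest arrays, and the difference was -1.69 (SE 0.24, limma adjusted p = 0.0222). It passed in all 10 other settings that kept the 6 arrays. These include the looser threshold of 0.1, which it had to pass. They also include choices among a gene's probe sets, which leave its value unchanged. It passed in 3 of the 6 fits that left out 1 array, where its value ran from -1.96 to -1.46. The call was lost without knockout replicate 2 (limma adjusted p = 0.119), wild-type replicate 1 (limma adjusted p = 0.104) or wild-type replicate 2 (limma adjusted p = 0.096). Haus8 has 1 probe set on the array, so no second one checks it.

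None of the other 7 augmin subunits passed (limma, with 2 lower and 0 higher at an unadjusted p under 0.05). Over all genes, 8.0% were lower and 8.41% higher at that unadjusted p. The difference was negative for 6 of the 7, against 53.9% of all genes, and its median over the 7 was -0.47. Haus7 read 5.99, 5.70 and 5.58 in knockout arrays, against 6.43, 6.56 and 6.07 in wild-type arrays. Its groups did not overlap, and the difference was -0.60 (SE 0.16, limma adjusted p = 0.147). Haus1 stood at -0.60, Haus4 at -0.55, Haus6 at -0.47, Haus3 at -0.30 and Haus5 at -0.27, all with overlapping arrays (limma adjusted p between 0.401 and 0.698). Over the fits that each omit an array, Haus1 ranged from -0.89 to -0.35, Haus6 from -0.67 to -0.24 and Haus5 from -0.47 to -0.12. Haus2 read 7.33, 7.28 and 7.29 in knockout arrays, against 7.27, 7.16 and 7.27 in wild-type arrays. Its knockout arrays were all slightly higher, with a difference of 0.06 (SE 0.09, limma adjusted p = 0.855). A test of Haus8 against the other subunits was not made, so it is not shown to differ from them.

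**Figure D4:**
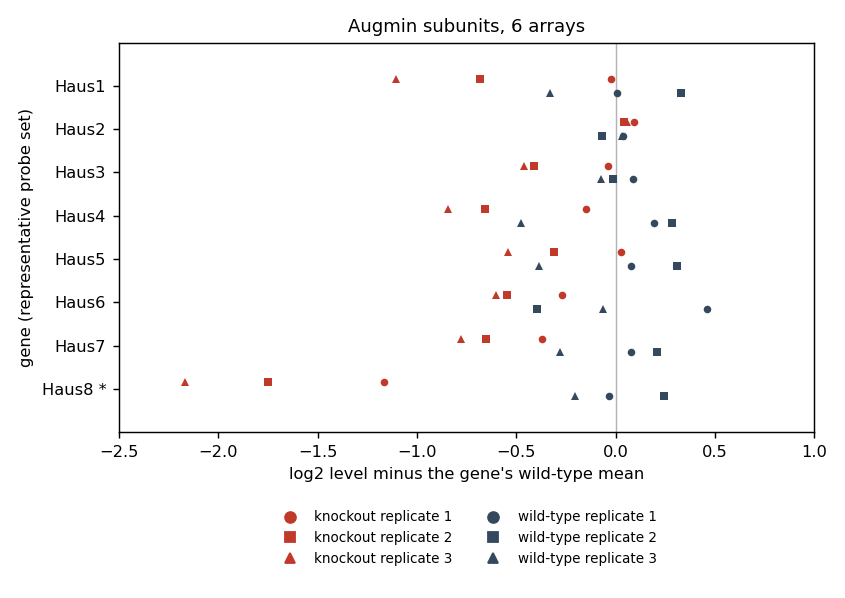
Level of the 8 augmin subunits in each array, as the log2 level minus that gene's wild-type mean; red marks are knockout arrays, dark marks wild-type arrays, shapes give the replicate number and the asterisk marks an adjusted p under 0.05. Haus8 alone has knockout arrays more than 1.5 below its wild-type mean, and Haus2 stays near 0.

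The counts by role that follow stand against the same shares of all genes, 8.0% lower at an unadjusted p under 0.05 and 10.6% with no overlap and knockout lower. Among the cyclins, mitotic kinases and their transcription factor, 0 of 7 measured genes passed (limma), 4 were lower at an unadjusted p under 0.05 and the median was -0.34. Plk1, the kinase of centrosome maturation and mitotic exit, had the smallest p of the 37 after Haus8. It read 5.13, 4.87 and 4.80 in knockout arrays, against 5.58, 5.51 and 5.46 in wild-type arrays. No arrays overlapped, and the difference was -0.59 (SE 0.11, limma adjusted p = 0.060). Cdk1, the kinase of mitotic entry, read 8.42, 7.39 and 7.58 in knockout arrays, against 8.98, 9.50 and 8.23 in wild-type arrays. Its mean difference of -1.10 was larger than that of Plk1, but knockout replicate 1 lay above wild-type replicate 3, and the spread was wide (SE 0.36, limma adjusted p = 0.234).

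Ccna2, cyclin A2, which partners Cdk1 and Cdk2, read 8.80, 7.95 and 8.47 in knockout arrays, against 8.98, 8.91 and 8.90 in wild-type arrays. The wild-type arrays lay close together and all above the knockout arrays, with a difference of -0.52 (SE 0.20, limma adjusted p = 0.321). Without knockout replicate 2 the difference was -0.29. Foxm1, the transcription factor of late cell cycle genes, was near the array median with 4.17, 4.50 and 4.27 in knockout arrays, against 4.29, 4.58 and 4.32 in wild-type arrays. Its arrays overlapped (difference -0.08, limma adjusted p = 0.873), and at such a dim level a difference can be understated. Its other 3 probe sets, dimmer still, stood at -0.33, -0.31 and 0.19, and none passed. The kinase Nek2 of centrosome separation stood at -0.34, cyclin B2 (Ccnb2) at -0.32 and the spindle-pole kinase Aurka at -0.23, all with overlapping arrays.

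Of the 5 spindle checkpoint genes 0 passed (limma), 3 were lower at an unadjusted p under 0.05 and the median was -0.61. Ttk, the kinase that starts checkpoint signalling at kinetochores, read 5.09, 4.50 and 4.71 in knockout arrays, against 5.29, 5.37 and 5.41 in wild-type arrays. Wild-type arrays were tight and above all knockout arrays (difference -0.59, SE 0.15, limma adjusted p = 0.136). A second, dim Ttk probe set stood at 0.14 with all knockout arrays higher (limma adjusted p = 0.633), and the mean of both was -0.23. Mad2l1, which holds Cdc20 inactive, read 8.38, 7.45 and 7.52 in knockout arrays, against 8.61, 8.87 and 8.14 in wild-type arrays. Its groups overlapped through knockout replicate 1 (difference -0.75, SE 0.27, limma adjusted p = 0.302). The checkpoint kinase Bub1 stood at -0.61 and its relative Bub1b at -0.71, while Cdc20, the activator of the anaphase-promoting complex that they restrain, stood at -0.41.

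The chromosomal passenger complex, which corrects faulty attachments and later marks the central spindle, had a median of -0.81 over its 4 genes. None passed (limma), and 3 were lower at an unadjusted p under 0.05. Borealin, Cdca8, read 7.15, 6.64 and 6.50 in knockout arrays, against 7.86, 8.24 and 7.27 in wild-type arrays. Its groups did not overlap, with a difference of -1.02 (SE 0.26, limma adjusted p = 0.131). Survivin, Birc5, read 8.88, 8.16 and 8.25 in knockout arrays, against 9.15, 9.62 and 8.77 in wild-type arrays, an overlap of 1 array in each group (difference -0.75, SE 0.25, limma adjusted p = 0.256). The kinase of the complex, Aurkb, read 6.71, 5.34 and 5.85 in knockout arrays, against 7.04, 7.24 and 6.21 in wild-type arrays. It had the widest standard error of the 37 genes (SE 0.37), and the difference of -0.87 did not pass (limma adjusted p = 0.406) and was -0.55 without knockout replicate 2. The scaffold Incenp stood at -0.40.

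Centromere and kinetochore genes had a median of -0.66 over 5 genes, 0 passed (limma, with 4 lower at an unadjusted p under 0.05) and 3 had no overlap. Spc25, of the Ndc80 complex that grips microtubules, read 7.61, 6.69 and 6.60 in knockout arrays, against 8.26, 8.40 and 7.69 in wild-type arrays. Highest knockout and lowest wild-type arrays nearly touched, and the difference was -1.15 (SE 0.29, limma adjusted p = 0.129). Its partner Ndc80 stood at -0.66, the kinetochore motor Cenpe at -0.70 and the large kinetochore protein Cenpf at -0.56. Cenpa, the histone H3 variant of centromeres, read 8.57, 7.99 and 8.37 in knockout arrays, against 8.75, 8.95 and 7.97 in wild-type arrays. These values overlapped widely (difference -0.24, limma adjusted p = 0.807), and the second, dim Cenpa probe set stood at 0.64 (limma adjusted p = 0.601), so that the mean of both was 0.20 and the direction of Cenpa depends on the probe set. With 1 array left out, the brighter probe set ranged from -0.54 to -0.05.

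The 6 spindle motors and microtubule proteins, Haus8 included, had a median of -0.66, and 5 were lower at an unadjusted p under 0.05. Haus8 alone of them passed. The bipolar kinesin Kif11, which pushes spindle poles apart, stood at -0.81 with no overlap, Hmmr, a spindle-pole protein, at -0.74 with no overlap, and Nusap1, a microtubule bundler near chromosomes, at -0.58 with overlap. Tpx2, the activator of Aurka, stood at -0.49. Kif2c, a kinesin that takes microtubules apart at centromeres, was dim (4.65 to 4.82 in knockout arrays and 4.79 to 4.81 in wild-type arrays) and stood at -0.09 (limma adjusted p = 0.808).

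The 5 genes of the central spindle and cytokinesis had a median of -0.64, and 0 passed (limma, with 3 lower at an unadjusted p under 0.05). Prc1, the bundler of antiparallel microtubules at the midzone, read 6.74, 5.89 and 6.02 in knockout arrays, against 6.94, 7.25 and 6.87 in wild-type arrays. The arrays did not overlap (difference -0.81, SE 0.22, limma adjusted p = 0.162). Its second probe set passed as lower, at -0.73 (limma adjusted p = 0.0486). The scaffold anillin (Anln) stood at -0.65 and Ect2, which activates RhoA at the division plane, at -0.64, both without overlap. The midzone kinesins Kif20a and Kif23 stood at -0.53 and -0.08 with overlap. The second, dim Kif23 probe set stood at 0.18 (limma adjusted p = 0.617), so the direction of Kif23 depends on the probe set.

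Chromosome structure genes had a median of -0.44 over 5 genes, 0 passed (limma, with 4 lower at an unadjusted p under 0.05) and 4 had no overlap. Smc4, a core subunit of condensin, read 9.74, 9.70 and 9.68 in knockout arrays, against 10.15, 10.08 and 10.15 in wild-type arrays. Both groups were tight, and the difference of -0.42 was 1.34-fold (SE 0.09, limma adjusted p = 0.0707). The other condensin genes, Smc2 and Ncapg, stood at -0.63 and -0.78 (limma adjusted p = 0.131 and 0.0955), and a second probe set of Smc2 passed as lower at -0.93 (limma adjusted p = 0.0368). Mki67, which encodes the Ki-67 coat protein of mitotic chromosomes, read 8.90, 8.41 and 9.0 in knockout arrays, against 9.21, 9.31 and 9.11 in wild-type arrays. Its knockout arrays were all lower (difference -0.44, SE 0.16, limma adjusted p = 0.307), and the difference was -0.26 without knockout replicate 2. The DNA decatenating enzyme Top2a stood at -0.42 with overlap.

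Of the 37 further probe sets of these genes, 27 had a negative difference, their median was -0.29, and 2 passed as lower (those of Prc1 and Smc2), against 0.391% of all probe sets, while 0 passed as higher. Among 23 genes with more than 1 probe set, 14 had all of them negative.

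The arrays of a group differed from each other in these genes as a block. The mean level over the 37 genes was 7.03, 6.39 and 6.62 in knockout replicates 1, 2 and 3, against 7.33, 7.51 and 7.02 in wild-type replicates 1, 2 and 3. Knockout replicate 1 was therefore level with wild-type replicate 3, and the other pairs of arrays were apart. Knockout replicate 1 was the highest knockout array for 32 of the 37 genes and knockout replicate 2 the lowest for 28, while wild-type replicate 2 was the highest wild-type array for 28 and wild-type replicate 3 the lowest for 32. Over all genes, the same arrays held those places for 38.5%, 28.7%, 39.6% and 39.4% of genes. Knockout replicate 2 lay below all wild-type arrays for 33 genes, knockout replicate 3 for 30 and knockout replicate 1 for 19. Of the 20 genes whose groups overlapped, 11 would not overlap without knockout replicate 1 and 14 would not without wild-type replicate 3. Those arrays were picked from these same genes, and leaving out an array can only reduce overlap, so the counts are descriptions. Shares over all genes were not computed for these counts or for the 33, 30 and 19 genes above.

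The median within-group SD of the 37 genes was 0.365, against 0.192 for 7223 genes in the same range of level, and 32 of the 37 lay above 0.192. After subtraction of the group means, the deviations of a gene correlated with the mean deviation of the remaining mitosis genes with a median Pearson r of 0.877 over the 6 arrays, against 0.0868 for all other genes. This is a description over arrays that share each library, and it was not tested. Kif11 followed the mean most closely (r = 0.995) and Aurkb next (r = 0.991), while Smc4 (r = -0.03), Kif2c (r = -0.23) and Foxm1 (r = -0.25) did not follow it. Leaving out knockout replicate 1, 9 of the 37 genes passed as lower (limma), against 1.33% of all genes in that fit, namely Plk1, Nusap1, Prc1, Ttk, Ndc80, Spc25, Haus8, Ncapg and Smc2. Leaving out knockout replicate 2, wild-type replicate 1 or wild-type replicate 2, 0 passed (limma), against 0.0760%, 0.175% and 0.146% of all genes in those fits. At an unadjusted p under 0.05, 11, 16 and 12 were lower there, against 6.25%, 6.82% and 6.27% of all genes.

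The wider list of other mitosis genes held 129 symbols, some of them aliases of the same gene, and 115 genes were measured. The difference was negative for 97 of them, the median was -0.32, and 3 fell while 0 rose (limma, with 51 lower and 2 higher at an unadjusted p under 0.05). Over all genes, 0.591% fell and 1.08% rose, and 8.0% were lower and 8.41% higher before adjustment. Separase, Espl1, the protease that cuts cohesin at anaphase, read 6.73, 6.48 and 6.66 in knockout arrays, against 7.51, 7.68 and 7.77 in wild-type arrays. Its groups were far apart relative to their spread, and it fell 2.04-fold (difference -1.03, SE 0.11, limma adjusted p = 0.00804), and passed whichever array was left out. Plk4, the kinase of centriole duplication, read 6.23, 6.06 and 6.05 in knockout arrays, against 6.90, 6.89 and 6.82 in wild-type arrays. It fell by 0.75 (SE 0.09, limma adjusted p = 0.0125), and did not pass without knockout replicate 2, wild-type replicate 1 or wild-type replicate 2 (limma adjusted p = 0.0822, 0.0726 and 0.0603). Spindly, Spdl1, which brings dynein to kinetochores, read 4.92, 4.39 and 4.40 in knockout arrays, against 5.81, 5.53 and 5.44 in wild-type arrays. It fell by 1.02 (SE 0.17, limma adjusted p = 0.0368), and of the 6 fits with 1 array left out it passed in that without knockout replicate 1, with adjusted p between 0.0635 and 0.168 in the other 5. The positive differences with the smallest p were those of Mis18a, which licenses Cenpa loading (0.46, limma adjusted p = 0.169), and Rbl2, the p130 pocket protein of the DREAM complex (0.43, limma adjusted p = 0.146), and neither passed.

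Replication genes, which act earlier in the cycle, are given beside them. The difference was negative for 44 of the 45 measured, the median was -0.88, and 2 fell while 0 rose (limma, with 39 lower and 1 higher at an unadjusted p under 0.05), against the same shares of all genes. The helicase subunit Mcm2 read 7.62, 6.91 and 6.63 in knockout arrays, against 8.63, 8.42 and 8.64 in wild-type arrays (difference -1.51, SE 0.23, limma adjusted p = 0.029). Its call held without knockout replicate 1 and was lost without any other array, with limma adjusted p between 0.0502 and 0.146. Cyclin E2, Ccne2, was dim at 3.51, 3.47 and 3.53 in knockout arrays, against 4.32, 4.30 and 4.57 in wild-type arrays (difference -0.89, SE 0.10, limma adjusted p = 0.0106), and it did not pass without knockout replicate 2 (limma adjusted p = 0.0733). The mean level over the replication genes was 7.37, 6.72 and 6.51 in knockout arrays, against 7.76, 7.78 and 7.56 in wild-type arrays. Knockout replicate 1 was again the highest of its group, but here the lowest was knockout replicate 3, and the groups did not overlap. Whether replication and mitosis genes differ in their shift was not tested.

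Markers of several other cell types moved with the arrays too, and their part in the result was not tested. The marker counts stand against shares of all genes, with 53.9% negative, 10.6% without overlap and knockout lower, and 0.591% passing as lower. Before adjustment, 8.0% of all genes were lower and 8.41% higher at a limma p under 0.05. Of 13 erythroid markers 9 were measured, all 9 were negative, 5 had no overlap and 1 fell, the globin Hbb-b2 (difference -3.01, limma adjusted p = 0.0325). The globin Hba-a1 read 7.02, 7.09 and 4.81 in knockout arrays, against 10.41, 10.73 and 8.50 in wild-type arrays. Its difference of -3.57 was the lowest of all 17097 genes and did not pass (limma adjusted p = 0.0713). The 7 besides the globins, Klf1, Alas2 and Slc4a1 among them, stayed within 2.99 to 3.88 in knockout arrays and 3.11 to 4.18 in wild-type arrays, near the array median. The erythroid mean was 4.21, 4.24 and 3.84 in knockout replicates 1, 2 and 3, against 5.12, 5.21 and 4.67 in wild-type replicates 1, 2 and 3. The wild-type arrays had the same order in the erythroid and the mitosis means, and the knockout arrays did not. Of 8 measured B cell markers 0 passed (limma, with 3 lower and 0 higher at an unadjusted p under 0.05), and their mean was 4.66 to 4.81 in knockout arrays and 4.92 to 5.00 in wild-type arrays. T cell markers averaged 4.48 to 4.67 in knockout arrays and 4.74 to 4.82 in wild-type arrays, and none of the 8 passed (limma, with 1 lower and 0 higher at an unadjusted p under 0.05). The lower one was Cd4 (difference -0.97, limma adjusted p = 0.0535), and the rest stood between -0.33 and 0.20. The means of 3 myeloid lists stood higher in knockout arrays. Of 10 macrophage markers 3 rose (Cd163, Mertk and Cd5l) and 0 fell, against 1.08% of all genes that rose. Before adjustment, 1 was lower and 5 higher at a limma p under 0.05. Negative differences were found for 3 of the 10, Adgre1 (-0.28), Cd68 (-0.19) and Hmox1 (-0.53, with all knockout arrays lower). The mean over the 10 was 7.54 to 8.01 in knockout arrays and 7.30 to 7.39 in wild-type arrays. Of 5 measured monocyte markers 1 rose, Cd14 (difference 2.09, limma adjusted p = 0.00873), with a mean of 6.71 to 7.01 in knockout arrays and 6.00 to 6.45 in wild-type arrays. Neutrophil markers averaged 4.64 to 5.55 in knockout arrays and 4.23 to 4.52 in wild-type arrays, and none of the 7 passed (limma, with 0 lower and 2 higher at an unadjusted p under 0.05). The 2 were S100a8 (difference 2.28) and S100a9 (1.53), while Camp, Ltf, Ngp, Elane and Mpo, all dim, stood between -0.14 and 0.15. Among dendritic cell markers, whose mean was 10.61 to 10.75 in knockout arrays and 10.98 to 11.11 in wild-type arrays, 11 were negative and 2 positive. Cd8a stood at -1.47 (limma adjusted p = 0.062) and Zbtb46 at -0.75 (limma adjusted p = 0.0621). Xcr1 stood at -0.81 (limma adjusted p = 0.140) and Irf8 at -0.59 (limma adjusted p = 0.121). For these 4 genes all knockout arrays were lower. Flt3 went the other way, at 0.35 with all knockout arrays higher (limma adjusted p = 0.284). H2-Aa, Cd74 and H2-Ab1 stood between -0.06 and 0.03. None of the 7 measured NK cell, 4 plasmacytoid dendritic cell, 4 plasma cell or 7 progenitor markers passed (limma). Before adjustment, 0, 1, 0 and 0 were lower at a limma p under 0.05 and 1, 0, 2 and 3 higher. NK cell means were 4.68 to 4.79 in knockout arrays and 4.66 to 4.74 in wild-type arrays. Plasmacytoid means were 7.09 to 7.87 against 7.71 to 7.97, plasma cell means 6.15 to 6.53 against 5.77 to 6.01, and progenitor means 4.85 to 4.91 against 4.66 to 4.87.

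**Figure D5:**
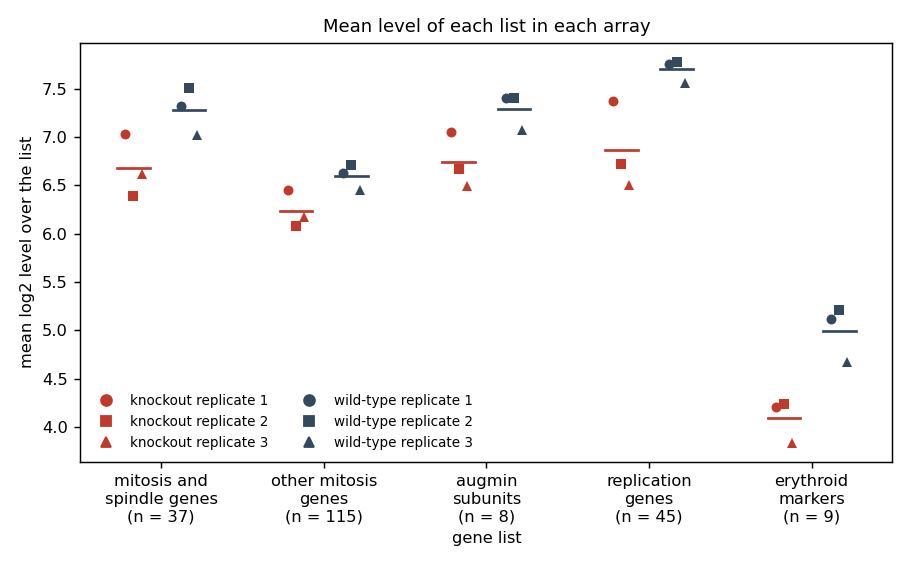
Mean log2 level over each gene list in each array (marks, with shapes for the replicate number) and group means (lines); knockout is red and left, wild-type dark and right. Knockout replicate 1 reaches the lowest wild-type array in the mitosis and spindle genes (7.03 against 7.02) and lies below it in the replication genes (7.37 against 7.56).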

How the data were processed

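The deposited values are log2 signals. Per the submitters' processing notes, the authors made them with RMA in version 1.1 of Affymetrix Expression Console. That method subtracts background, brings all arrays to 1 distribution and combines the probes of each set. It leaves no count or detection call, so differences of dim genes can be understated. The log2 scale was read from the values (2.58 to 13.9). Biotin-labelled cRNA came from 100 ng of RNA per sample, per the labels' protocols. The genome build behind the probe sets is not given in the sources used here.

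Of 45141 rows, 104 Affymetrix controls were left out and 45037 probe sets tested. The platform annotation gave 28898 of them 1 symbol, 551 several and 15588 none, and 28689 matched the RefSeq gene table through the Entrez ID. Probe sets with several symbols were not named. Differences are knockout minus wild type, estimated with limma 3.58.1 (lmFit, eBayes, no covariates; R 4.3.3) over all genes, with Benjamini-Hochberg adjustment over 45037 probe sets and a threshold of 0.05. The limma step was tested on simulated data. Lists were described by counts and medians and given no test.

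The genes, the lists and the alternatives were chosen with earlier results of these data known, and the negative shift of cell cycle genes had been seen before. By the rule for named genes, values in all arrays are given for genes past the threshold, for the gene with the smallest p and that with the highest mean level of each role, and for Mki67, Ccnb1, Cdk1, Foxm1 and Aurkb. Of the wider lists it takes the genes that passed, or the 2 with the smallest p (per direction for other mitosis genes), and every augmin subunit. Alternatives covered the probe sets used, normalization, variance model, array weights, replicate number, threshold and each array left out. Python 3.11.15 with matplotlib 3.10.9 drew the figures.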

Additional observations from a re-analysis of the deposited data

How the results depend on the processing

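With limma, 1 of the 37 mitosis and spindle genes passed as lower in the report, and 0 to 9 passed with 1 array left out. The count was 4 on means of a gene's probe sets, 3 on the probe set with the smallest p, 2 with array weights and 4 at an adjusted p under 0.1, and it stayed at 1 in the other 6 settings that keep all arrays without a block. None passed as higher in any setting. The difference was negative for 35 of the 37 genes on means of probe sets, and for 35 on the probe set with the smallest p. It was negative for 36 without knockout replicate 2 and for 36 without wild-type replicate 1. The median difference ran from -0.81 (without knockout replicate 1) to -0.43 (without knockout replicate 2) over 17 settings. With the replicate number as a block (replicate block), 5 passed, Haus8, Plk1, Spc25, Cdca8 and Ncapg, and the median stayed at -0.59. Deviations of same-numbered arrays correlated at 0.05, 0.13 and 0.32, and those of differently numbered arrays at -0.28 to 0.22. Not every array matched its own number best. So few arrays cannot settle whether the numbers mark pairs, and pairing was not tested. Cenpa turned to 0.20 on the mean of its probe sets and to 0.64 on that with the smallest p, and Foxm1, with 1 array left out, ran from -0.18 to 0.00804 and stood at -0.31 on the probe set with the smallest p. Over all 17097 genes, 101 passed as lower, against 181 on means of probe sets and 121 on the probe set with the smallest p. Taking the smallest p favours genes with several probe sets. The count over all genes was 159 with array weights, 250 with the replicate block, 272 at 0.1 and 13 to 227 with 1 array left out. The causes of these shifts were not tested. No paired design is stated in the labels. Signal over background limits dim genes such as Foxm1 and Kif2c, which are little brighter than a typical probe set.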
